A study of Mus musculus with 4 samples.

Results

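The tumour necrosis factor (TNF) ligand and receptor superfamilies were followed in 4 RNA sequencing libraries of mouse T cells. Members were the genes whose symbol has the form Tnfsf or Tnfrsf with a number, together with Tnf, Lta, Ltb, Ltbr, Cd27, Cd70, Cd40, Cd40lg, Fas, Fasl, Eda2r and Ngfr. This gave 43 members, 17 ligands and 26 receptors, among 23259 gene names in the series. All 43 had a row in the table of the vector experiment and 30 had one in the table of the dextran sulfate sodium (DSS) experiment. The other 13 were not analysed in that experiment.

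In the first experiment, naive CD4 T cells from C57BL6 mice of wild type genotype received either a Sox12 vector or a mock vector. Sox12 is a SoxC transcription factor. In the second, regulatory T cells (Treg) were taken from the spleen of Balb/c mice with the Foxp3-hCD2 reporter genotype, in which human CD2 marks the cells that express Foxp3, either after 7 days on water with 3% DSS or without treatment. DSS injures the colon epithelium. Each group had 1 library, so no difference has a replicate check, no test was run, and both values are given throughout. How many mice each library pooled, how long after transduction RNA was taken, and whether the vectors carried a marker gene are not given in the labels.

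TNF ligands are mostly trimeric membrane proteins, some of which are shed, and they act on receptors of neighbouring cells or of the same cell. The receptors recruit TRAF adaptors, which lead to NF-kB, or death domain proteins, which can lead to caspases. Activated T cells carry both sides of the system: CD40 ligand, OX40 ligand and RANK ligand act on dendritic cells, B cells and other T cells, while OX40, GITR and 4-1BB are costimulatory receptors that Treg also carry at a high level.

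Values are FPKM, fragment counts scaled by transcript length and by the depth of the library, which can be compared between genes. A change is the difference of log2(FPKM + 1), Sox12 vector minus mock vector or DSS minus untreated. It understates the change of genes near 1 FPKM. A gene is called 2-fold higher or lower where its change is at least 1 in size and 1.5-fold where it is at least 0.58, among genes that average 1 FPKM or more over both libraries (the filter). Sox12 itself had 829 FPKM with the Sox12 vector and 1.56 FPKM with the mock vector. The T cell receptor component Cd3e had 214 and 259 FPKM in these libraries, and 473 FPKM in DSS Treg and 468 FPKM in untreated Treg. Foxp3 had 84.9 FPKM in DSS Treg and 88.2 FPKM in untreated Treg. The Sox12 vector library was about 1.05 times as deep as the mock vector library, where 1 FPKM stood for about 41.9 fragments per kilobase. The depth of the DSS experiment is unknown.

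With the Sox12 vector, 10 of the 12 ligands past the filter were lower than with the mock vector, while the 19 receptors divided into 10 higher and 9 lower. Among all genes 51.1% were lower. The ligand furthest below the mock vector was Tnfsf11, which encodes RANK ligand, and the receptor furthest above it was Cd27. Of the 31 members past the filter, 3 were called 2-fold higher and 5 were called 2-fold lower. Over all 10822 genes past the filter, 4.85% were 2-fold higher and 1.91% 2-fold lower. With a pseudocount of 5 FPKM in place of 1, Cd27 was the 1 member called higher and 4 were called lower. With the 75th percentiles of the libraries made equal, 2 were higher and 6 lower. In bulk libraries fewer cells that carry a transcript and less of it per cell cannot be told apart.

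**Figure D1:**
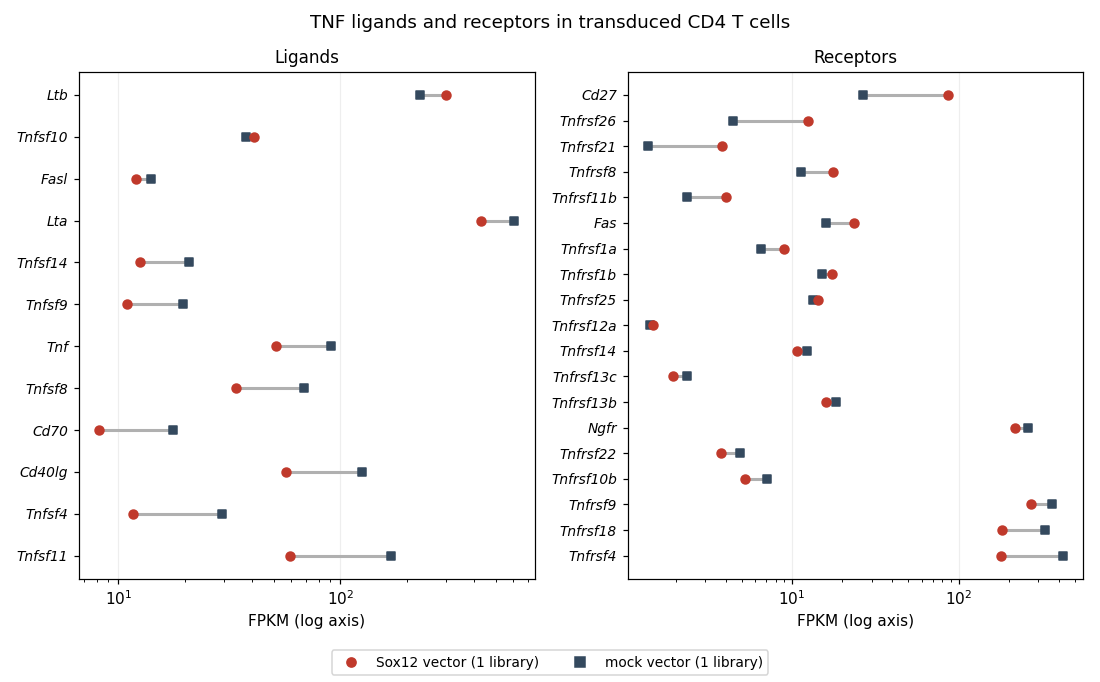
FPKM on a log axis of the 12 ligands (left panel) and 19 receptors (right panel) with a mean of at least 1 FPKM in transduced CD4 T cells. Red circles are the Sox12 vector library and dark squares the mock vector library, and genes run from the highest change at the top to the lowest at the bottom. Red lies left of dark for 10 of 12 ligands, from Fasl down to Tnfsf11.

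The upstream sequences of 3 members are shown because they had the largest called changes of their kind among members with a mean of at least 5 FPKM: Cd27, the receptor furthest above the mock vector, Tnfrsf4, the receptor furthest below it, and Tnfsf11, the ligand furthest below it. No ligand was called higher. They are RefSeq windows of the 250 bases before the start site on GRCm38.p6, at chr6:125237028-125237277 (minus strand) for Cd27, chr4:156013445-156013694 (plus strand) for Tnfrsf4 and chr14:78308044-78308293 (minus strand) for Tnfsf11. Each is written 5′ to 3′ along the gene, and capitals mark a match to a core motif of SOX factors, ACAATG or ACAAAG, on either strand.
Cd27: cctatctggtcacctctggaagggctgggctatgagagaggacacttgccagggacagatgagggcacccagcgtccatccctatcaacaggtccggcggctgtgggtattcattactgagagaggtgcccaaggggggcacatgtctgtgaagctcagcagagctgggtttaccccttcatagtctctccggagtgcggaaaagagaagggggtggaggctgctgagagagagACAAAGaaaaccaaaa
Tnfrsf4: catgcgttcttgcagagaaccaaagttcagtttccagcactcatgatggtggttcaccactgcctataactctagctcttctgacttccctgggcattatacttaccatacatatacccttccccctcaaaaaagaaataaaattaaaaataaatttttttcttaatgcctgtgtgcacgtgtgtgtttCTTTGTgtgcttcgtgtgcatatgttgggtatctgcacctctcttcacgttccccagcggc
Tnfsf11: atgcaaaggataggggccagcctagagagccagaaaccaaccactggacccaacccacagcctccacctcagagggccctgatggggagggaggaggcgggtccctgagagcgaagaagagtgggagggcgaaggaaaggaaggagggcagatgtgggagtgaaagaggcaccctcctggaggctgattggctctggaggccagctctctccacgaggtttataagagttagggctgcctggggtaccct
Cd27, which was higher, and Tnfrsf4, which was lower, each held 1 match, to ACAAAG and to its reverse complement CTTTGT, and Tnfsf11 held none. Windows were found for 33 of the 43 members. At least 1 of these SOX motifs occurred in 9 of their 37 windows (24.3%), beside 25.2% of all 32841 windows in the RefSeq table. The NF-kB consensus occurred in 3 of the 37 windows (8.11%), those of Tnfrsf8, Tnfrsf9 and Ltb, beside 3.90% of all windows. A match is a run of letters and not a measured binding site.

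Of the TNF and lymphotoxin ligands, which lie side by side in the genome, Lta and Tnf were lower with the Sox12 vector and Ltb was higher. Lta, the soluble lymphotoxin, had 430 FPKM with the Sox12 vector and 604 FPKM with the mock vector (ratio 0.712), which ranked 99 and 82 among the 23259 genes of the table. Tnf, the founding cytokine of the family, had 51.3 and 91.1 FPKM (ratio 0.563). Ltb, the membrane partner of lymphotoxin alpha, had 298 FPKM with the Sox12 vector and 229 FPKM with the mock vector (ratio 1.30). The ratios of the other 2 genes thus lay on the opposite side of 1 from that of Ltb.

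The ligands that costimulate other lymphocytes or act on antigen-presenting cells were lower in 6 of 6 cases past the filter, with a median change of -1.001. Cd40lg, the CD40 ligand by which helper T cells act on B cells and dendritic cells, had 56.7 FPKM with the Sox12 vector and 125 FPKM with the mock vector, a change of -1.13. Tnfsf4 (OX40 ligand) had 11.6 and 29.2 FPKM, a change of -1.26. Cd70, the ligand of CD27, had 8.22 and 17.6 FPKM, a change of -1.01. These are the 3 costimulatory ligands called 2-fold lower. Tnfsf8, the CD30 ligand, lay just outside the call with 33.9 FPKM in the Sox12 vector library and 68.3 FPKM in the mock vector library (change -0.99), and it was called with a pseudocount of 0.1 or equal 75th percentiles. Cd70 was no longer called with a pseudocount of 5 (-0.77) or with equal totals without the 20 highest genes (-0.96). Tnfsf9, the 4-1BB ligand, had 10.97 and 19.6 FPKM (change -0.79) and Tnfsf14, which encodes LIGHT, had 12.5 and 20.9 FPKM (change -0.69), so both were 1.5-fold lower, Tnfsf14 no longer with a pseudocount of 5 (-0.56). Cd70, Tnfsf9 and Tnfsf14 are also neighbours in the genome, with no other protein-coding gene between them in RefSeq.

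Tnfsf11 encodes RANK ligand, which drives osteoclast formation and lymph node development and which activated T cells make. It had 59.3 FPKM with the Sox12 vector and 169 FPKM with the mock vector (change -1.49, ratio 0.352), the lowest change of any member, and ranked 74 from the lowest among all 10822 genes. About 5822 and 15800 fragments lay behind these values, and the 95% interval of the ratio from counting alone (exact Clopper-Pearson) ran between 0.341 and 0.362. Its signalling receptor Tnfrsf11a (RANK) stayed under the filter at 0.176 and 0.436 FPKM. Tnfrsf11b, the soluble decoy osteoprotegerin, had 4.01 FPKM with the Sox12 vector and 2.34 FPKM with the mock vector (change 0.59), at the edge of the 1.5-fold rule. It was not called by that rule with equal 75th percentiles (0.56) or a pseudocount of 5 (0.30).

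The death ligands were close in the 2 libraries. Fasl, by which cytotoxic lymphocytes kill through Fas, had 12.02 FPKM with the Sox12 vector and 14.1 FPKM with the mock vector (ratio 0.855, counting interval 0.765 to 0.954). Tnfsf10, which encodes TRAIL, had 40.7 and 37.6 FPKM (ratio 1.08, counting interval 1.04 to 1.13). Neither was called by the 1.5-fold rule. The ligands of the B cell survival system were below the filter: Tnfsf13b (BAFF) had 0.207 and 0.754 FPKM and Tnfsf13 (APRIL) 0.0281 and 0.0710 FPKM. Tnfsf12 and Tnfsf15 were at most 0.131 FPKM in either library, and Tnfsf18, the GITR ligand, was listed at 0 in both.

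As a list, the 12 ligands past the filter had a median change of -0.80, beside -0.01 for all genes. By the 1.5-fold rule 8 of them were lower (7 with a pseudocount of 5) and 0 higher, where 6.88% of all genes were lower and 10.1% higher. The filter decided none of these, since the lowest value among the 12 was the 8.22 FPKM of Cd70. Without the filter the median over 17 ligands was -0.54. The summed FPKM of the ligands was 1026 with the Sox12 vector and 1427 with the mock vector, most of it from Lta and Ltb.

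**Figure D2:**
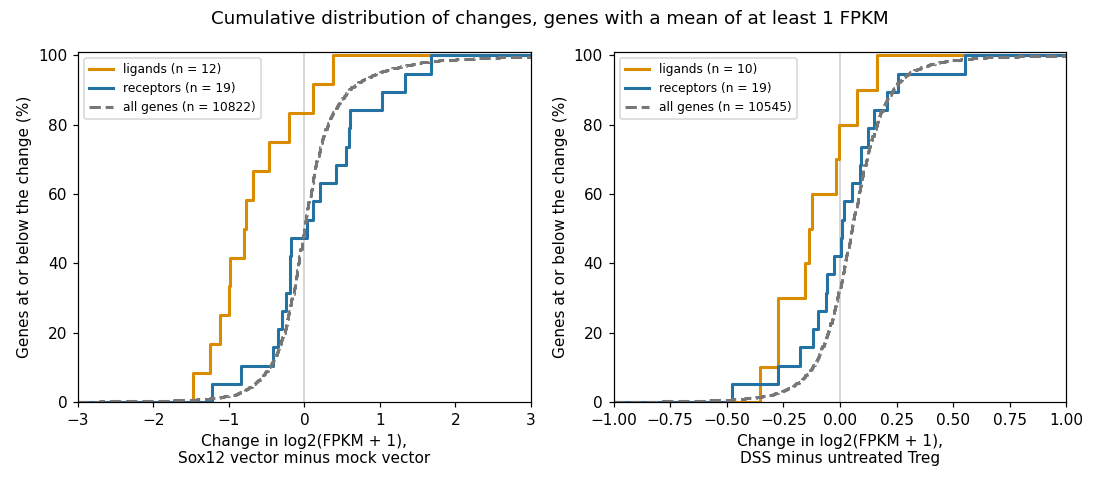
Cumulative share of genes (%) at or below a given change in log2(FPKM + 1), for ligands (orange), receptors (blue) and all genes past the filter (dashed grey). Left, Sox12 vector minus mock vector, with 12 ligands, 19 receptors and 10822 genes in all. Right, DSS minus untreated Treg on a narrower axis, with 10, 19 and 10545. At the height of 50% the ligand line lies left of the others, with a median of -0.80 in the left panel and -0.13 in the right, beside 0.04 and 0.01 for receptors.

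Among the costimulatory receptors the most abundant ones were lower and Cd27 and Tnfrsf8 were higher. Tnfrsf4 (OX40), a receptor that activated T cells and Treg carry, had 180 FPKM with the Sox12 vector and 423 FPKM with the mock vector (change -1.23, ratio 0.425, counting interval 0.414 to 0.436). Tnfrsf18 (GITR), its neighbour in the genome, had 183 and 330 FPKM (change -0.85). Tnfrsf9 (4-1BB) had 271 and 365 FPKM (change -0.43). These 3 had the highest level of any receptor with the mock vector, and the summed FPKM of all receptors was 1083 with the Sox12 vector and 1524 with the mock vector.

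Cd27, which binds CD70 and supports survival and memory of T cells, had 86.8 FPKM with the Sox12 vector and 26.5 FPKM with the mock vector (change 1.67, ratio 3.27). The interval of that ratio from counting ran between 3.04 and 3.52. Natural killer (NK) cells and CD8 T cells also express Cd27, and markers of these cells were higher in the same library: 10 of 10 listed genes past the filter were above the mock vector, 7 of them 2-fold, with a summed level of 515 FPKM with the Sox12 vector and 155 FPKM with the mock vector and no marker at 0. Their part in the value of Cd27 was not tested. Cd4 had 185 FPKM with the Sox12 vector and 261 FPKM with the mock vector. Of the CD8 genes, Cd8a had 5.58 and 0.580 FPKM (ratio 9.61) and Cd8b1 7.68 and 4.80 FPKM (ratio 1.60).

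Tnfrsf8 (CD30), a receptor of activated T cells, had 17.7 FPKM with the Sox12 vector and 11.4 FPKM with the mock vector (change 0.59), just inside the 1.5-fold rule and outside it with equal 75th percentiles (0.56) or a pseudocount of 5 (0.47). Tnfrsf25, the death domain receptor DR3, which expands Treg when engaged in mice, had 14.4 and 13.3 FPKM, and the counting interval of that ratio held 1 (0.989 to 1.18). Tnfrsf14 (HVEM), the receptor of LIGHT, had 10.7 and 12.3 FPKM (change -0.19). Cd40, typical of B cells and antigen-presenting cells, was below the filter at 0.472 and 0.397 FPKM.

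The receptors of TNF and the death receptors were mostly a little higher with the Sox12 vector. Tnfrsf1a, the death domain receptor of TNF, had 8.96 FPKM with the Sox12 vector and 6.48 FPKM with the mock vector (change 0.41). Tnfrsf1b, the second TNF receptor, which is prominent on Treg, had 17.4 and 15.1 FPKM (change 0.19). Fas had 23.6 and 16.0 FPKM (change 0.54). None of these 3 reached the 1.5-fold rule, though Fas did with equal totals without the 20 highest genes (0.593). Tnfrsf21, the death domain receptor DR6, was called 2-fold higher with 3.80 FPKM with the Sox12 vector and 1.37 FPKM with the mock vector (change 1.02, ratio 2.78), and the call was lost with a pseudocount of 5 (0.47) or equal 75th percentiles (0.995). Tnfrsf10b, the TRAIL receptor of mice, went the other way at 5.23 and 7.02 FPKM (change -0.37). Ltbr, the lymphotoxin beta receptor of stromal and myeloid cells, was below the filter at 0.109 and 0.0688 FPKM.

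Tnfrsf26, Tnfrsf22 and Tnfrsf23 are neighbouring mouse receptor genes, of which Tnfrsf22 and Tnfrsf23 are decoys for TRAIL. Tnfrsf26 was called 2-fold higher at 12.5 FPKM with the Sox12 vector and 4.39 FPKM with the mock vector (change 1.32, ratio 2.84), and with a pseudocount of 5 the call was lost (0.90). Tnfrsf22 had 3.74 and 4.86 FPKM (change -0.30). Tnfrsf23, just under the filter, had 1.01 and 0.939 FPKM. The 3 genes thus did not move together, and since they are similar in sequence the split of fragments among them is uncertain.

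Receptors with roles outside T cells completed the set. Ngfr, the neurotrophin receptor of neurons, was among the most abundant genes of both vector libraries, with 219 FPKM with the Sox12 vector and 261 FPKM with the mock vector, ranks 242 and 210 of 23259. Endogenous transcripts and any that a vector supplies cannot be told apart in a gene-level value. Ngfr had no value in the Treg libraries, where every listed gene reached at least 1.00036 FPKM in at least 1 of them. It is counted among the 19 receptors past the filter, the 9 lower ones and the receptor sums. Tnfrsf13b (TACI), a receptor of BAFF and APRIL best known from B cells, had 16.0 FPKM with the Sox12 vector and 18.4 FPKM with the mock vector (change -0.20). Beside it, the B cell marker Ms4a1 had 0.178 and 0.0818 FPKM, and 7 B cell markers, none at 0 in both, summed to 2.69 FPKM with the Sox12 vector and 2.31 FPKM with the mock vector. Tnfrsf13c (the BAFF receptor) had 1.93 and 2.34 FPKM, and Tnfrsf12a, the TWEAK receptor, had 1.46 and 1.40 FPKM, and the counting intervals of both ratios held 1. Tnfrsf17 (BCMA) was listed at 0 in both, and Tnfrsf19 and Eda2r were at most 0.224 FPKM.

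Set side by side in a chosen list of pairs, ligand and receptor often differed in direction. In 12 listed pairs both genes were past the filter. Of these, 8 had a lower ligand and a higher receptor with the Sox12 vector and 3 had both lower. In 1 the ligand was higher and the receptor lower, and 0 had both higher. The list does not hold every known pair, so these counts, the 0 among them, depend on the choice. Tnfsf10 (0.11) with its decoy Tnfrsf22 (-0.30), for example, is not in it. Some genes stand in more than 1 pair, as Tnf and Lta each do with Tnfrsf1a and Tnfrsf1b, and all of these combinations are among the 8. Since 10 of the 12 ligands were lower, most pairs had a lower ligand whatever the receptor did. The counts were not set against an expected share. The widest split was that of Cd70 (-1.01) and Cd27 (1.67). The OX40 pair Tnfsf4 (-1.26) and Tnfrsf4 (-1.23) had nearly equal changes, and the 4-1BB pair Tnfsf9 (-0.79) and Tnfrsf9 (-0.43) and the LIGHT pair Tnfsf14 (-0.69) and Tnfrsf14 (-0.19) were also lower on both sides.

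**Figure D3:**
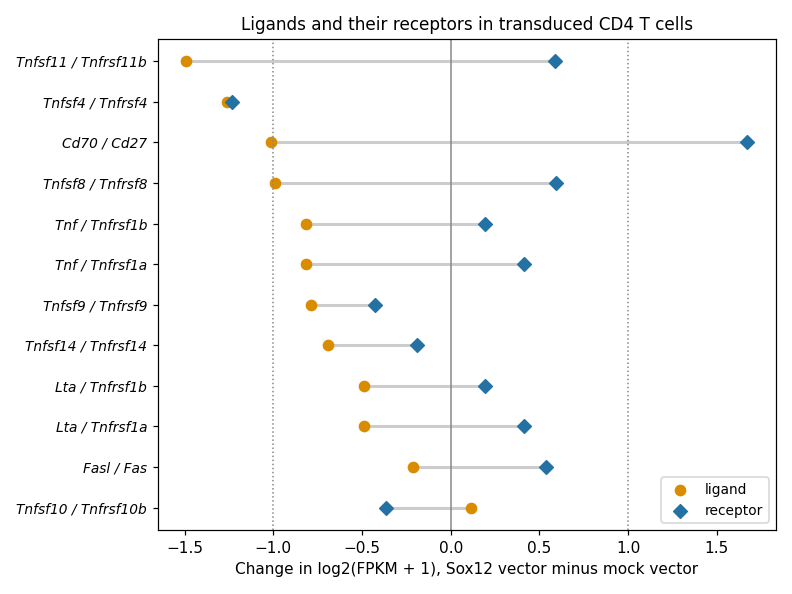
Change in log2(FPKM + 1), Sox12 vector minus mock vector, for the 12 listed ligand and receptor pairs past the filter. The ligand is an orange circle and the receptor a blue diamond. Dotted lines mark the 2-fold rule at -1 and 1. In 8 pairs the ligand lies below 0 and the receptor above it, and in the OX40 pair the 2 symbols nearly coincide.

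Genes that carry signals from these receptors lay on both sides of the mock vector. Of the TRAF adaptors, death domain proteins and caspase regulators 8 of 15 were above and 7 below the mock vector, with 0 called 2-fold in either direction and a median of 0.01. Casp8, the initiator caspase of death receptors, had 82.7 FPKM with the Sox12 vector and 74.5 FPKM with the mock vector, and Traf1, an adaptor induced by NF-kB, had 52.7 and 63.2 FPKM. Chosen after their values were seen, the ubiquitin ligase gene Birc2 had 37.3 and 18.8 FPKM (change 0.95) and Traf4 had 43.2 and 22.4 FPKM (change 0.91). Of 17 ubiquitin and IKK genes 10 were above and 7 below (median 0.01), with Tab2 at 63.7 FPKM in both libraries and Rbck1, a subunit of the linear ubiquitin ligase, at 61.9 and 61.2 FPKM.

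Of the 9 NF-kB subunits and inhibitors 8 were lower, 0 were called 2-fold, and the median was -0.39. Nfkb1 had 124 FPKM with the Sox12 vector and 177 FPKM with the mock vector (change -0.51) and Nfkbia, the inhibitor that NF-kB itself induces, had 110 and 128 FPKM (change -0.22). Nfkb2, the precursor of the noncanonical arm, was the lowest at 74.3 and 126 FPKM (change -0.76) and Bcl3 the only one higher at 40.9 and 23.2 FPKM (change 0.79), both chosen after their values were seen. Of 4 shedding genes past the filter 2 were above and 2 below, with the protease Adam10 at 47.1 and 63.1 FPKM and Furin at 39.8 and 27.1 FPKM. Relt, a family member outside the symbol rule, had 8.38 FPKM with the Sox12 vector and 8.39 FPKM with the mock vector.

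In Treg no member was called by either rule between DSS and untreated mice, and few genes of any kind were. Of the 29 members past the filter 0 were called 2-fold or 1.5-fold in either direction, where 0.266% of 10545 genes were called 2-fold and 1.32% were called 1.5-fold, so the members' count is near that of all genes. With a pseudocount of 0.1, 1 member, Tnfrsf12a, was 1.5-fold higher (0.74). Changes below 0 were seen in 8 of 10 ligands and 9 of 19 receptors, beside 33.9% of all genes. The ligands had a median change of -0.13, beside 0.05 for all genes. That of the receptors was 0.01, and it was negative when the median of all genes was set to 0 (-0.04), when the 75th percentiles were made equal (-0.03) and when totals were equalised leaving out the 20 highest genes (-0.02). The DSS table lists genes whose higher value was at least 1.00036 FPKM, so a member low in both libraries has no row.

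**Figure D4:**
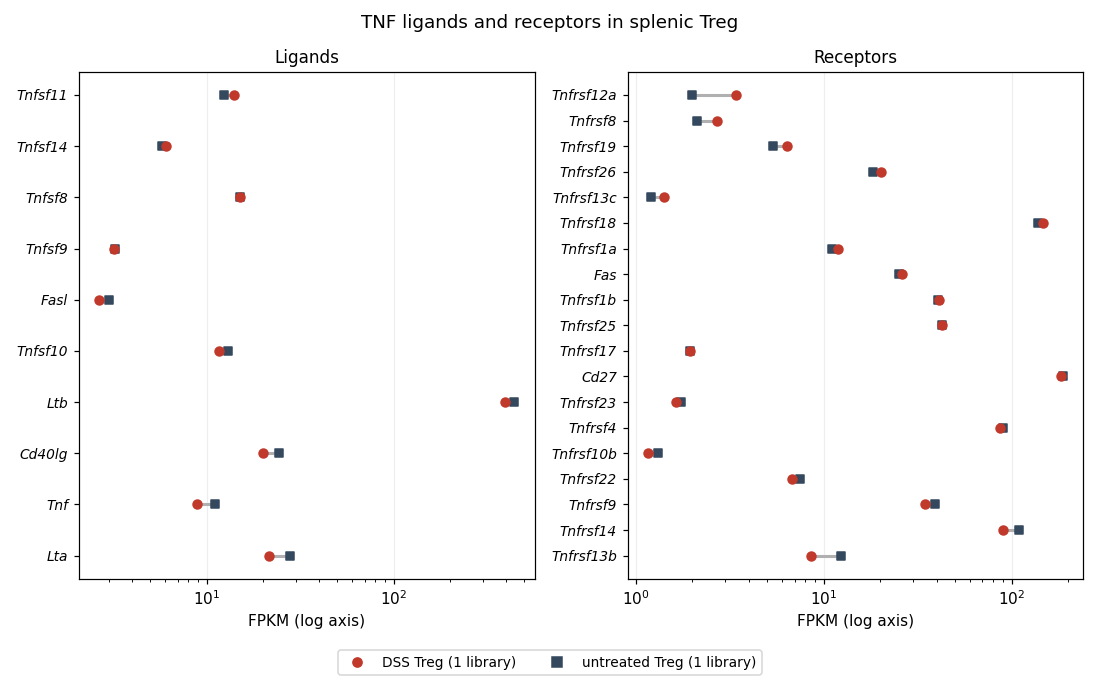
FPKM on a log axis of the 10 ligands and 19 receptors with a mean of at least 1 FPKM in splenic Treg, with DSS Treg as red circles and untreated Treg as dark squares, from the highest change at the top to the lowest at the bottom. Most symbols nearly coincide, and the widest gaps are those of Tnfrsf12a (3.40 and 2.00 FPKM) and Tnfrsf13b (8.53 and 12.3 FPKM).

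The TNF and lymphotoxin ligands were lower in DSS Treg in 3 of 3 cases. Lta had 21.5 FPKM in DSS Treg and 27.8 FPKM in untreated Treg (ratio 0.772). Tnf had 8.93 and 11.04 FPKM (ratio 0.809). Ltb, the most abundant member in this cell type, had 394 FPKM in DSS Treg and 439 FPKM in untreated Treg (ratio 0.897), ranks 86 and 80 among the genes of the table. The 3 ratios lay on the same side of 1.

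Cd40lg had 20.04 FPKM in DSS Treg and 24.4 FPKM in untreated Treg (ratio 0.820). Tnfsf8 had 15.1 and 15.2 FPKM, and Tnfsf9 had 3.20 and 3.26 FPKM. Tnfsf14 had 6.08 FPKM in DSS Treg and 5.75 FPKM in untreated Treg. Of these 4 costimulatory ligands, Cd40lg thus lay furthest from untreated Treg. Of the death ligands, Fasl had 2.67 and 3.01 FPKM and Tnfsf10 11.7 and 13.0 FPKM, both lower in DSS Treg. Tnfsf11 was higher at 14.0 FPKM in DSS Treg and 12.5 FPKM in untreated Treg (ratio 1.13), and with Tnfsf14 it was 1 of the 2 ligands above 0.

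The costimulatory receptors were among the most abundant members in both Treg libraries. Cd27 had 183 FPKM in DSS Treg and 187 FPKM in untreated Treg. Tnfrsf18 had 148 and 139 FPKM (ratio 1.06). Tnfrsf4, its genomic neighbour, had 86.3 and 90.3 FPKM (ratio 0.956). The neighbours thus lay on opposite sides of 1, each by a small margin. Tnfrsf14 was further below untreated Treg, at 90.2 and 109 FPKM (ratio 0.824, change -0.28), and Tnfrsf9 had 34.4 and 39.1 FPKM (ratio 0.880). Tnfrsf25 had 42.8 and 42.6 FPKM and Tnfrsf1b 41.3 and 40.8 FPKM, and both of these small positive changes turned negative under each of the 3 other scalings. Tnfrsf8 had 2.72 FPKM in DSS Treg and 2.12 FPKM in untreated Treg (change 0.25).

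The 2 members with the largest changes in Treg were receptors. Tnfrsf12a, which encodes the TWEAK receptor Fn14, had 3.40 FPKM in DSS Treg and 2.00 FPKM in untreated Treg (ratio 1.70, change 0.55), and its change ranked 110 from the highest. Tnfrsf13b (TACI) had 8.53 and 12.3 FPKM (ratio 0.692, change -0.48), and its change ranked 78 from the lowest. Markers of plasma cells, which can carry TACI, were lower in 3 of 4 cases, with none at 0. Their summed level was 292 FPKM in DSS Treg and 341 FPKM in untreated Treg. Most of that sum was Igj alone, at 231 and 277 FPKM. Prdm1 was the marker that was higher, at 6.16 and 5.20 FPKM. Among B cell markers with a row, Cd79a had 3.92 and 3.19 FPKM and Cd79b 5.23 and 5.48 FPKM. Basophil and myeloid granule markers were higher in 8 of 8 cases past the filter, at a summed level of 62.6 FPKM in DSS Treg and 27.6 FPKM in untreated Treg, and erythroid markers in 10 of 10, at 803 and 536 FPKM, none at 0 in both. The part of these cells in the receptor values was not tested.

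The other receptors lay close together in the 2 Treg libraries. Fas had 26.1 FPKM in DSS Treg and 25.1 FPKM in untreated Treg, and Tnfrsf1a 11.9 and 11.1 FPKM. Tnfrsf26 had 20.3 and 18.3 FPKM, Tnfrsf22 6.82 and 7.51 FPKM and Tnfrsf23 1.64 and 1.75 FPKM. As in the vector experiment, Tnfrsf26 was above and Tnfrsf22 below its value in the compared library, here by small margins (0.14 and -0.12). Tnfrsf23 was below it here (-0.06) and above it in the vector experiment (0.05). The split of fragments among these similar genes is uncertain here too. Tnfrsf19, known as TROY, had 6.37 and 5.38 FPKM (change 0.21). Tnfrsf13c had 1.41 and 1.21 FPKM, Tnfrsf17 1.94 and 1.95 FPKM and Tnfrsf10b 1.17 and 1.32 FPKM. Tnfrsf21, with 1.17 FPKM in DSS Treg and 0.682 FPKM in untreated Treg, was under the filter.

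Among all genes past the filter in Treg, 33.9% were below 0 and the median change was 0.05. Adaptors and caspase regulators were above untreated Treg in 6 of 15 cases and below in 9 (median -0.08). Casp8 had 58.0 FPKM in DSS Treg and 62.1 FPKM in untreated Treg, and Tank 49.7 and 57.5 FPKM. Ubiquitin and IKK genes were above in 10 of 16 cases (median 0.03), with Rbck1 at 71.0 FPKM in both libraries and Tnfaip3, the inhibitor A20, at 63.0 and 56.9 FPKM. NF-kB genes were below in 6 of 9 cases (median -0.04), with Nfkbia at 168 and 173 FPKM and Nfkb1 at 89.7 and 90.2 FPKM. Shedding genes were above in 3 of 4 cases (median 0.15), with Adam10 at 51.7 FPKM in DSS Treg and 46.7 FPKM in untreated Treg and Adam17 at 22.7 and 22.8 FPKM. Relt had 10.5 and 12.2 FPKM.

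The 2 experiments share no library, and 26 members passed the filter in both. Of these, 12 were below 0 in both and 7 above 0 in both, while 3 were above 0 with the Sox12 vector alone and 4 above 0 in DSS Treg alone. As deposited, 18.0% of all 9958 genes past the filter in both tables were below 0 in both and 32.7% above 0 in both. Of the members, 46.2% and 26.9% were. In DSS Treg 33.9% of the 10545 genes past the filter were below 0 at that scaling, so the 18.0% depends on it. With the median change of each table set to 0, 12 members were below 0 in both. At that setting 5 were above 0 in both, without Tnfrsf1b and Tnfrsf25, and the shares of all genes were not computed. Members below 0 in both, as deposited, included Tnf (-0.82 with the Sox12 vector and -0.28 in DSS Treg), Lta (-0.49 and -0.36) and Cd40lg (-1.13 and -0.27). Of the members called 2-fold with the Sox12 vector, Cd27 had changes of 1.67 and -0.03 and Tnfsf11 of -1.49 and 0.16. Tnfrsf4 had -1.23 and -0.06, and Tnfrsf26 had 1.32 and 0.14. Cd40lg, also called, lay further from 0 in DSS Treg, as given. Most genes of any kind lay near 0 there, with a 5th percentile of -0.20 and a 95th of 0.31. Whether the changes differ between the experiments could not be tested with 1 library per group.

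**Figure D5:**
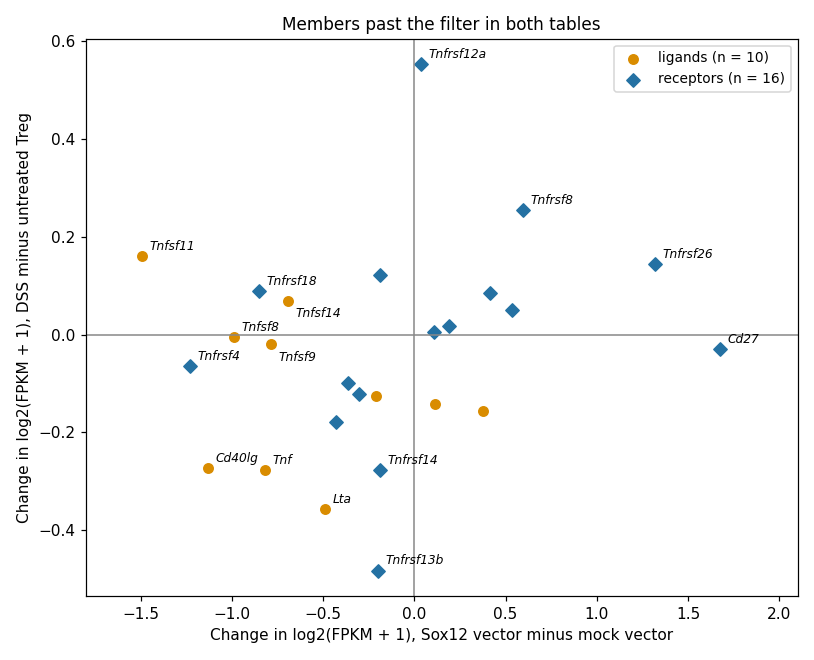
Change in log2(FPKM + 1) of the 26 members past the filter in both tables, Sox12 vector minus mock vector on the horizontal axis and DSS minus untreated Treg on the vertical axis, which is drawn on a narrower range. Ligands are orange circles (10) and receptors blue diamonds (16), and 12 members lie in the lower left and 7 in the upper right.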

How the data were processed

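Libraries of total RNA, 4 in all, were made with a strand-specific SureSelect kit, per the labels' protocols. Cufflinks and mm9 are named, without a role or version, in the submitters' processing notes. Which aligner and annotation were used, and whether strand was, is not given in the sources used here. The DSS table holds FPKM and a ratio (fold change), and the vector table log2(FPKM + 1) values and their differences, as the authors deposited them. The log2 values were turned back to FPKM. Since each experiment has its own table, changes were taken only inside a table. Rows with a gene name turned into a date, 25 in the vector table and 16 in the DSS table, were left out.

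Changes are differences of log2(FPKM + 1), among genes averaging 1 FPKM or more, and were computed in Python 3.11.15 with pandas 2.3.3 and SciPy 1.17.1. Every member is accounted for. Of each pathway list the named genes are those called 2-fold or else the 2 with the highest mean. Birc2, Traf4, Nfkb2 and Bcl3 are exceptions, chosen after their values were seen. Members and lists were chosen with earlier results of these data known, so their patterns are descriptions. A gene of the marker lists is not reported here. Medians over members past a filter are descriptions too.

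Fragments in the vector table were estimated from low FPKM values of 784 (Sox12 vector) and 753 (mock vector) genes with a single transcript in GENCODE vM21 on GRCm38, a later build than the authors'. For the mock vector library the 47 genes near the most frequent value gave 41.9 fragments per kilobase and FPKM. The Sox12 vector library was taken as 1.05 times as deep, from the most frequent ratio among 1707 genes with both values under 0.1 FPKM, shared by 282 of them. Its own 60 such genes gave 44.9, which was not used. Intervals at 95% use median coding transcript lengths and cover counting error only. They do not cover differences between preparations or animals.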

Additional observations from a re-analysis of the deposited data

How the results depend on the processing

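Each of 7 alternatives was applied to all members. The number of members called 2-fold higher with the Sox12 vector was 3. It was 2 with a mean of at least 5 FPKM or equal 75th percentiles. With a pseudocount of 5 FPKM it was 1, when Cd27 alone was called. The number called lower was 5 and lay between 4 and 6 under the alternatives. In DSS Treg 0 members were called 2-fold under any of the 7, and 1, Tnfrsf12a, was called 1.5-fold with a pseudocount of 0.1. By the 1.5-fold rule 2 to 6 receptors were higher with the Sox12 vector, beside the 5 reported, and 7 or 8 ligands lower. No called member changed sign. In the vector experiment the direction of all 31 members was the same under the 3 scalings, and in DSS Treg 2 of 29 turned, as given above. The ligand median lay between -0.83 and -0.54 with the Sox12 vector and between -0.18 and -0.09 in DSS Treg, while the receptor median with the Sox12 vector was 0.04 and became -0.04 with a mean of at least 5 FPKM.

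Over all genes the count of 525 higher with the Sox12 vector was 222 with a pseudocount of 5 and 322 where the mean had to reach 5 FPKM, and the count of 207 lower was 335 with a pseudocount of 0.1 and 94 with one of 5. In DSS Treg the counts of 20 higher and 8 lower were 39 and 20 with a pseudocount of 0.1, 6 and 3 with one of 5, and 8 and 2 where the mean had to reach 5 FPKM. No paired analysis was possible because each group has 1 library. Depth limits little in the vector experiment: for 28 of 31 members the counting interval of the ratio excluded 1. It says nothing of how far 2 libraries of the same group would differ.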
